A study of Mus musculus with 2 samples.

Results

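The Il4ra and Il21r cytokine receptor locus held 10 of the 6792 regions that were called enriched for Runx1 over IgG in pro-B cells. They were chosen by position, as the peaks with a midpoint between 132685000 and 132790000 on chromosome 7 of the mouse build mm9, a window given as the neighbourhood of both genes and picked because it holds a large group of peaks. The positions, widths and scores below therefore describe this group, and none of them was tested. The list was made from 1 library precipitated with an antibody that rabbits had raised to a peptide from the C terminus of Runx1, and 1 library precipitated with rabbit IgG. Both came from BMiFLT3(15-3), a pro-B-cell line from a murine B-cell-precursor acute lymphoblastic leukaemia, and the cells of both libraries had been transduced with Runx1-ERt2, a fusion that enters the nucleus when tamoxifen is given. The labels' protocol has the cells given tamoxifen (0.2 µM) or, as a control, ethanol 24 h ahead of extraction, without saying which of them each library received. One line was used with 1 library per arm, so no value has an error between cultures, and in the list sites bound by endogenous Runx1 and sites bound by the fusion cannot be told apart.

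Runx1 is a transcription factor with a Runt domain that contacts DNA. It binds as a heterodimer with CBFβ, recognises the letters TGTGGT and close variants, and is needed for early B-cell development. Il4ra encodes the alpha chain of the interleukin-4 receptor, which pairs with the common gamma chain or with the interleukin-13 receptor alpha 1 chain and signals mainly through STAT6. In mature B cells interleukin-4 drives survival and class switching. Il21r encodes the interleukin-21 receptor, which also pairs with the common gamma chain, signals mainly through STAT3, and promotes germinal-centre responses and plasma-cell differentiation.

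In the RefSeq gene table of GRCm38.p6, a later build used here for names and order only, Il4ra and Il21r are next to each other with no other listed gene between them. Nsmce1, which encodes a subunit of the SMC5-SMC6 complex, lies on the Il4ra side, and Gtf3c1, which encodes a subunit of the RNA polymerase III factor TFIIIC, lies on the Il21r side. Coordinates were not carried from one build to the other. The tie between the mm9 window and these genes thus rests on the rule that chose it, and no peak was assigned to an exon, an intron, a UTR or a start site.

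The start regions of both receptor genes are printed because they show whether the letters that Runx1 recognises are present at either. They are RefSeq windows of GRCm38.p6, from 250 bases before to 50 bases after a transcript start, on the plus strand, at chr7:125552021-125552320 for Il4ra and chr7:125603179-125603478 for Il21r. These positions cannot be set against the mm9 peak positions. The Il21r window follows a transcript start that lies inside the gene as the gene table draws it. Capitals mark TGTGGT or TGCGGT on either strand, the reverse complements being ACCACA and ACCGCA.
Il4ra: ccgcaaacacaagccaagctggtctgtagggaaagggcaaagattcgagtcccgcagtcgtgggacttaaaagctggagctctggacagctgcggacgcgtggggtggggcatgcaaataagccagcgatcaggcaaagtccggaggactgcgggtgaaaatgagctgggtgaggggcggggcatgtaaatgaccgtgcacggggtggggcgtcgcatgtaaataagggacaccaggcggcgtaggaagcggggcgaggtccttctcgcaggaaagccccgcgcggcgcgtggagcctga
Il21r: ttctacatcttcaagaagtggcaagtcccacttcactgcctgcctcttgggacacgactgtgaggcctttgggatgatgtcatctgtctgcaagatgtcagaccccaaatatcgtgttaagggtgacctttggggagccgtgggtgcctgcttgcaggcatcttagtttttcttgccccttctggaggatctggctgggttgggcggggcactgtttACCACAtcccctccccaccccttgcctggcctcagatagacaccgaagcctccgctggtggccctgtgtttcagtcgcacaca
The Il21r window held 1 match, ACCACA, which is TGTGGT on the opposite strand, beginning 33 bases before the transcript start. The Il4ra window held neither motif. Among all 32851 windows of that length in the table, 16.8% held TGTGGT, 6.45% held TGCGGT and 22.4% held at least 1 of them on either strand. The Il4ra window was GC-rich, with 62.0% G or C and 25 CpG dinucleotides, and the Il21r window had 56.0% and 7, against medians of 52.7% and 7 over all windows. A match describes letters in these windows only and is not a bound site.

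The same search was made in the other receptors that share the common gamma chain and in the interleukin-13 receptors. Of the 10 genes listed (Il2ra, Il2rb, Il2rg, Il4ra, Il7r, Il9r, Il15ra, Il21r, Il13ra1 and Il13ra2), 9 matched the promoter table, all except Il2rb, with 10 windows in all. Of these 10 windows 5 held at least 1 of the motifs, against 22.4% of all windows. TGTGGT was found in those of Il21r, Il2rg (the common gamma chain itself), Il7r (the interleukin-7 receptor, which early B-cell progenitors depend on) and Il9r. TGCGGT was found in that of Il2ra. The windows of Il4ra, Il13ra1, Il13ra2 and Il15ra held neither.

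In the Il4ra and Il21r window a pair of peaks scored far above the rest. The score is the authors' deposited value from their peak caller, on a scale the file does not state. Ranks and differences of scores are therefore read only within this list, and a difference in score units is not a fold of enrichment. The strongest peak, from 132765785 to 132767051, was 1267 bp wide and scored 887.8. It ranked 24 of 6792 in the full list, with 0.339% of all peaks scoring higher, and 4 of the 446 peaks on chromosome 7. The next strongest, from 132746371 to 132747452, was 1082 bp wide, scored 402.66, and ranked 430 in the list and 36 on chromosome 7. Their centres were 19.5 kb apart, with 1 peak, scoring 105.27, between them. The other 8 peaks scored between 55.29 and 143.83. The gap of 485 score units between the strongest and the second strongest, and of 259 between the second and the third, exceeded the whole range of the remaining scores.

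**Figure D1:**
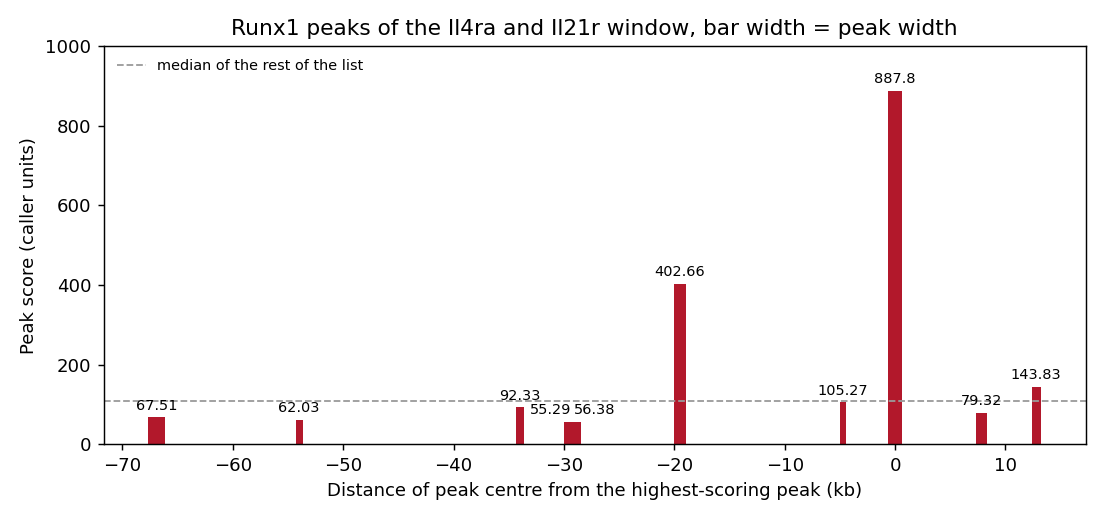
Scores of the 10 Runx1 peaks in the Il4ra and Il21r window (vertical axis, caller units) against the distance of each peak's centre from that of the strongest peak (horizontal axis, kb). Bars are as wide as the peaks and the dashed line is the median score of the rest of the list, 109.61; only the peaks scoring 887.8, 402.66 and 143.83 rise above it.

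The 5 peaks at the low-coordinate end of the group, on the side where the gene order places Il4ra if it is the same in mm9, all scored under 100. The first, from 132698765 to 132700246, scored 67.51 and ranked 5317. It was the widest of the group at 1482 bp, and only 119 peaks of the list were wider. The second, from 132712104 to 132712742, was 639 bp wide, scored 62.03 and ranked 5712. Both stood apart, with 12.9 kb between their centres and 19.995 kb to the third. The third peak, from 132732067 to 132732769, was 703 bp wide, scored 92.33 and ranked 4027.

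The fourth and the fifth peak lay side by side. The fourth ran from 132736462 to 132737229, measured 768 bp, scored 55.29 and ranked 6283, the lowest of the group. The fifth ran from 132737232 to 132737981, measured 750 bp, scored 56.38 and ranked 6180. Only 2 bases separated them, and their scores differed by 1.09. Of the 6769 pairs of neighbouring peaks in the list, 3 had a gap of at most 2 bp, this one included, and 213 pairs (3.15%) had a gap of at most 500 bp. The list gives no summits, so whether the fourth and the fifth are separate binding sites or 1 region reported as 2 intervals was not tested.

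The 5 peaks at the high-coordinate end held the 4 highest scores of the group. They began with the peak scoring 402.66, the sixth in order. The seventh, from 132761398 to 132762010, was the narrowest of the group at 613 bp, scored 105.27 and ranked 3536. It lay 4.71 kb from the centre of the strongest peak, the eighth. The ninth, from 132773703 to 132774779, was 1077 bp wide but scored 79.32 and ranked 4618. The tenth, from 132778795 to 132779623, was 829 bp wide, scored 143.83 and ranked 2509, the third-highest score of the group. The median score was 143.83 over these 5 peaks and 62.03 over the first 5, a division made after the values had been seen. A score of at least 100 was reached by 4 of the last 5 and by 0 of the first 5, so 4 of the 10 members passed a value that 55.0% of the whole list reached.

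Most members were ordinary or weak peaks of this list. Their median score was 85.8, with quartiles of 63.4 and 134, against a median of 109.61 with quartiles of 70.6 and 192 for the other 6782 peaks. The other 436 peaks of chromosome 7 had a median of 117. Of the 10 members, 2 scored at least 200, against 23.6% of the list, and 2 scored under 60, close to the lowest score in the list (50.03), against 13.5%. With 10 peaks these shares are close to the background. The number of low-scoring regions in the window depends on where the caller's threshold was set, and read depth is unknown. Further weak sites may therefore not have been called.

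**Figure D2:**
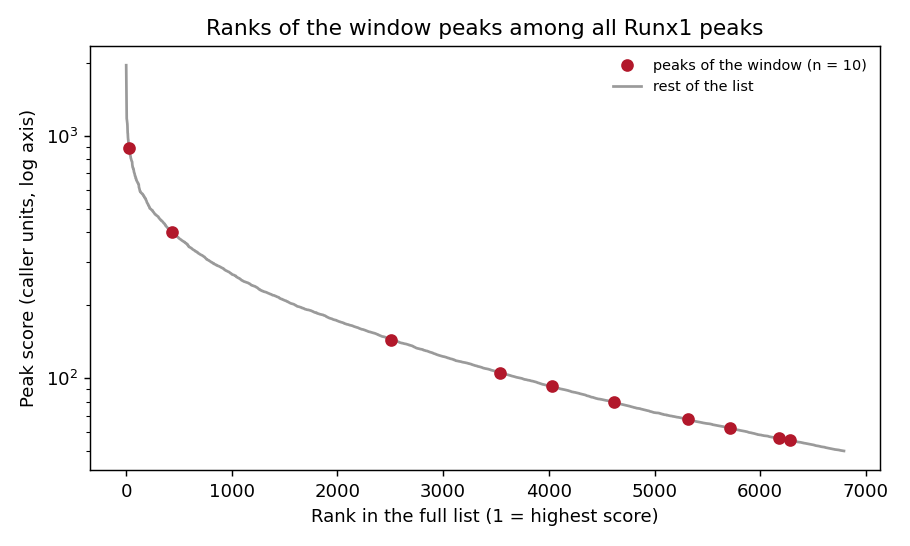
Score (vertical axis, caller units, log axis) against rank in the full list of 6792 peaks (horizontal axis, 1 is the highest); red points are the 10 peaks of the Il4ra and Il21r window and the grey line is the rest of the list. The strongest member ranks 24 and the next 430, and the other 8 lie between rank 2509 and rank 6283.

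The members had a median width close to that of the list, but several were wide. Their median width was 798.5 bp, with quartiles of 715 and 1081 bp and a range of 613 to 1482 bp, against a median of 787 bp and quartiles of 681 and 897 bp for the rest of the list. Widths over 1000 bp were found for 4 members, against 14.3% of the list. Of these 4, the sixth and the eighth were the strongest of the group, while the first and the ninth scored 67.51 and 79.32. Peaks over 1000 bp in the list had a median score of 236. The first member scored low for its width, a comparison picked after the values had been seen. Of the 89 other peaks in the list within 5% of its width, whose median score was 241, 6 scored no higher than it did. The strongest member was at the other extreme, since 6 of the 166 other peaks within 5% of its width scored higher, and their median was 223. Across the 10 members, width and score had a Spearman's rho of 0.32, and across the whole list 0.51. Both are descriptions over peaks that share the same libraries.

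**Figure D3:**
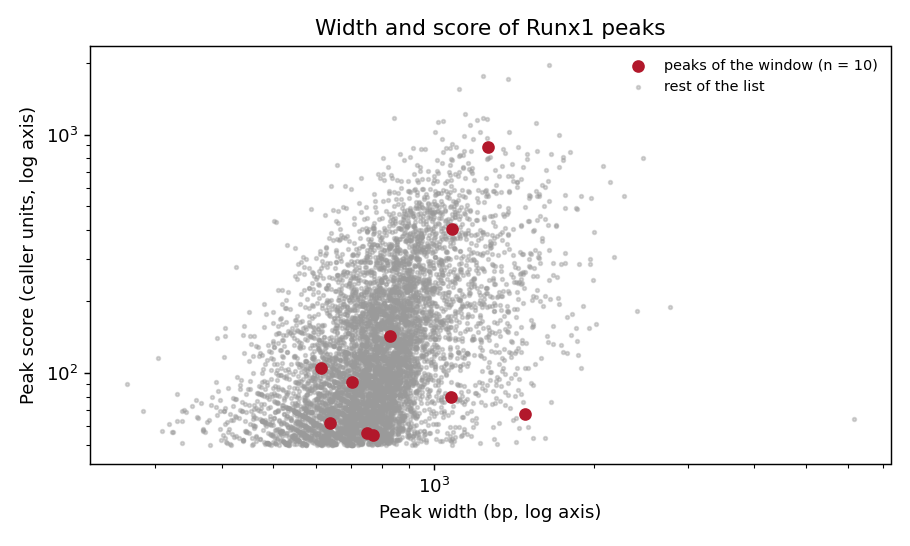
Width (horizontal axis, bp, log axis) against score (vertical axis, caller units, log axis) of the 10 peaks in the Il4ra and Il21r window (red) and of the rest of the list (grey). The 2 strongest members lie among wide, high-scoring peaks, while the members of 1482 and 1077 bp have scores of only 67.51 and 79.32.

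The peaks were closely spaced, which follows from the rule, since the window was picked for holding a large group of peaks. The 9 distances between neighbouring centres ran from 0.761 to 19.995 kb with a median of 7.82 kb, against 72.7 kb over the whole list and 50.5 kb on chromosome 7. Together the members spanned 80.9 kb, of which the peaks themselves covered 9210 bp, or 11.4%. When only neighbours within 10 kb were joined, the group separated into the lone first and second peaks and 2 sets of 4. The lower set spanned 15.4 kb from 132732067 to 132747452 and ended with the peak scoring 402.66. The upper set spanned 18.2 kb from 132761398 to 132779623 and held the peak scoring 887.8. Each set thus had 1 strong peak and 3 weaker ones, with median scores of 74.4 in the lower set and 125 in the upper. At that distance the list held 47 sets of 4 peaks and 16 larger ones.

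No other peak as strong as the pair at Il4ra and Il21r was called within 1000 kb of the middle of the group. The nearest peak below it, from 132634480 to 132635496, scored 61.13 and was 64.5 kb from the first member and 50.0 kb outside the window. The nearest peak above it, from 133008037 to 133008663, scored 58.55 and was 229 kb from the tenth member. Within 500 kb of the middle of the group there were 7 other peaks, with scores of 56.47 to 127.07. Within 1000 kb there were 10 others, the highest scoring 237.15. Outside the window that is 0.821 peaks per 105 kb within 500 kb and 0.554 within 1000 kb, both above the mean of the whole list given next. When each chromosome was divided from its first peak into stretches of 105 kb, the length of the window, 83.3% of the 24157 stretches held no peak, the mean was 0.281 peaks, and 2 held 10. On chromosome 7 the fullest of the 1421 stretches held 8, since the division did not coincide with the window. The window was picked for its number of peaks, so its contrast with these stretches was set in advance.

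Among groups of peaks whose neighbouring centres lay within 20 kb, the one at Il4ra and Il21r was long and uneven. The list had 417 groups of 3 or more peaks, and this was the second by number of peaks, which is what it was picked for. That rank was 17 with a limit of 10 kb, 12 with 50 kb and 14 among peaks scoring at least 100. These ranks were shared with 46, 6 and 28 other groups of the same size. By span it was the longest of the 417, and a span tends to grow with the number of peaks, for which the group was picked. The rank by span also rests on the spacing of 19.995 kb, which lies just under the 20-kb limit. With a limit of 19 kb, chosen after that spacing was seen, the first and second peaks fell away and the remaining 8 peaks spanned 47.6 kb, at rank 12 by span. Its strongest peak was the 12th highest among the strongest peaks of the 417 groups, while its median score ranked 341.

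On the caller's scale, the strongest peak stood further above the median at Il4ra and Il21r than in most large groups. Against the other 61 groups of 5 or more peaks, 5 had a higher strongest peak and 5 had a larger difference between the strongest peak and the median, but 48 had a higher median. That difference was 802 score units at Il4ra and Il21r, against a median of 205 over the other 61 groups. The groups were not matched for size, and a highest score tends to rise with the number of peaks. Of the 62 groups of 5 or more, this one included, 6 had 8 or more peaks. Among those 6 the highest score at Il4ra and Il21r ranked 3. The share of peaks scoring at least 100 was 40.0%, against a median share of 60%, and 9 of the 61 groups had a lower share. The mean spacing of 8.86 kb was somewhat wider than the median of 7.37 kb in those groups, and 16 of them were wider still. It includes the spacing of 19.995 kb, just under the 20-kb limit. The centres of the third and the tenth peak lay 34 kb below and 12.8 kb above that of the strongest. Between them the mean spacing was under 7.37 kb, so the wider mean rests on the first 2 peaks. With a limit of 19 kb the remaining 8 peaks had a median score of 98.8. The 2 peaks that fell away, scoring 67.51 and 62.03, also lower the share scoring at least 100. All these values are positions within 1 list and were not tested.

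The list had 6 groups of 8 or more peaks, of which 4 had 8 peaks. The plot of groups by distance from the strongest peak shows the first 5 by number of peaks, with ties ordered by the highest score. The group of 11 peaks on chromosome 10, from 79340364 to 79410321, had 2 strong peaks of similar score, 743.22 and 654.51, and a median of 184. It also had 4 neighbouring pairs with a gap of at most 500 bp, against 1 at Il4ra and Il21r. The 8-peak group on chromosome 7 from 71041003 to 71085073 had a stronger leading peak, at 1160.48, and a median of 234, with 7 of 8 peaks scoring at least 100. The 8-peak group on chromosome 5 from 125487466 to 125537264 also had 1 dominant peak, at 1026.89 with 279.74 next, and its median was 130. Another, on chromosome 7 from 16742557 to 16793438, had a median of 107, and its highest scores were 522.24 and 472.05. The remaining 8-peak group, on chromosome 9 from 61511557 to 61563172, had a median of 119 and no strong peak, its highest score being 164.92. Of these 6 groups the one at Il4ra and Il21r had the lowest median score and the third-highest leading peak. A peak as strong as 887.8 was uncommon, with 24 in the list including this one. Of the other 23, 11 lay in groups of 3 or more peaks and 5 in groups of 5 or more. Of all 6792 peaks in the list, 1521 lay in groups of 3 or more. The number in groups of 5 or more was not counted.

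**Figure D4:**
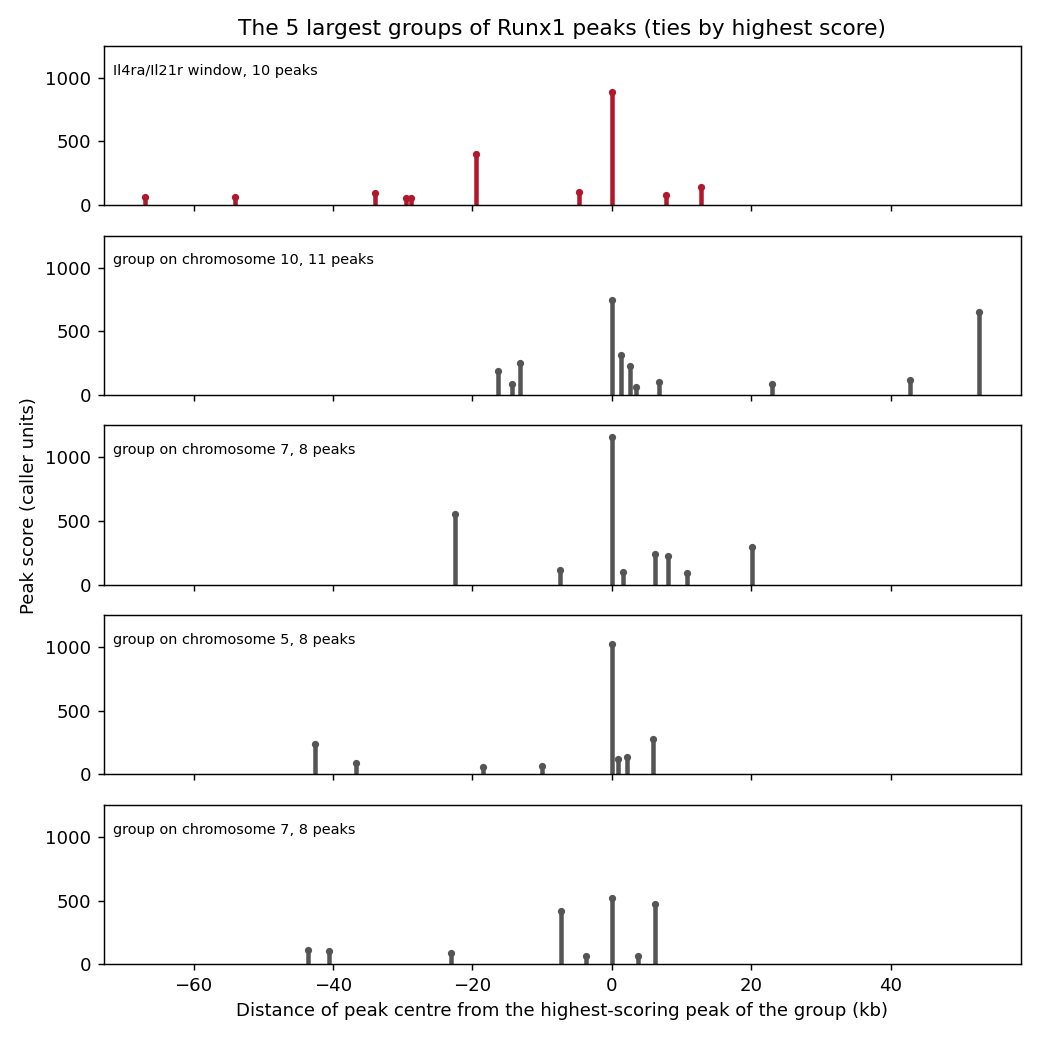
Scores (vertical axes, caller units) of the peaks in the 5 largest groups (ties in size ordered by the highest score) against distance from the strongest peak of each group (horizontal axis, kb), with the Il4ra and Il21r window in red at the top and the groups on chromosomes 10, 7, 5 and 7 below it. With the 20-kb limit the Il4ra and Il21r group is the longest, at 80.9 kb, and 8 of its 10 peaks score no more than 143.83. With a limit of 19 kb its remaining 8 peaks span 47.6 kb.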

How the data were processed

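The data were 1 deposited list of peaks that sets the Runx1 library against IgG, per the file header. Its only value per peak is a score, deposited by the authors on a scale not stated there. The lowest is 50.03, just above the bound that MACS's default p-value limit would give; the scale was not settled further. MACS 1.4.01, Bowtie 0.12.8, CASAVA 1.8.2 and the build mm9 are listed, per the submitters' processing notes. The sources used here give no settings for them. Fragments of 350 to 550 bp were isolated, per the labels' protocol. The depth is unknown.

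From this list ranks, widths, spacings and groups (neighbouring midpoints within 20 kb on chromosomes 1 to 19 or X) were computed with scipy 1.17.1, pandas 2.3.3 and numpy 2.4.6 under Python 3.11.15 and drawn with matplotlib 3.10.9. Grouping was checked on simulated data. Positions count from 1. Promoter windows came from RefSeq (GRCm38.p6) by symbol. Every peak of the window is named, and otherwise the 5 largest groups, 1 further group tied in size (added after its values were seen) and the nearest peaks outside. The members and lists were chosen with earlier results of these data known. With 1 library per arm no test was made. Sequence under the peaks was not analysed here. Alternatives were a score minimum of 100, joining intervals within 500 bp or 2 kb, membership by any overlap, wider windows, and neighbour distances of 10 and 50 kb; a distance of 19 kb and a widening by 100 kb were added after seeing the data.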

Additional observations from a re-analysis of the deposited data

How the results depend on the processing

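The window kept 9 peaks after joining intervals within 500 bp or within 2 kb, 10 when any overlap counted or when it was widened by 50 kb on each side, and 13 when widened by 100 kb. The result at 50 kb held narrowly, since the centre of the nearest peak below lay 50.0125 kb from the window edge. Requiring a score of at least 100 left 4 peaks and, by construction, raised their median score to 273. The median was 92.3 after joining within 2 kb, 85.8 with the window widened by 50 kb and 79.3 with 100 kb. The rank of the group by number of peaks, 2 as reported, was 1 after joining within 500 bp and within 2 kb, when it had 9 peaks. It was 17 at a neighbour distance of 10 kb, where its part around the strongest peak had 4 peaks, tied with 46 other groups. At 50 kb it was 12 with 10 peaks, tied with 6 others. Among peaks scoring at least 100 it was 14 with 4 peaks, tied with 28 others. At 19 kb it remained 2, with 8 peaks and 4 other groups of that size. Another distance changes what counts as a group, and a score minimum leaves fewer peaks. No paired analysis was possible because each arm had 1 library and no test was made, and no replicate could be left out. Without read numbers, depth limits what can be said of weak or missing peaks.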

Other observations

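The Il4ra window printed above also holds the octamer ATGCAAAT, the letters bound by the POU factors Oct-1 and Oct-2, which act in B cells, beginning 139 bases before the transcript start. The octamer was looked for after that sequence had been read. On either strand it was found in 1.74% of the 32851 windows and in that of no other gene of the receptor list. It describes letters in a reference sequence, and no binding of these factors was measured here.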
